A study of Mus musculus with 6 samples.

Results

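miR-143 and miR-145 are the 2 microRNAs of a gene cluster of smooth muscle. They were found here as the assays of that name on a TaqMan PCR array, 2 of 517 microRNA assays, and each was read in all 6 aortas. An assay of the opposite strand of the miR-145 hairpin, miR-145*, was on the array as well and is described beside them. The aortas came from male mice that lacked Apoe and carried LysM-Cre. In 3 mice Cre met floxed Dicer (LysM-Cre/Dicerflox/flox/Apoe–/–, Dicer_KO), and 3 littermates had wild-type Dicer (LysM-Cre/Dicerwt/wt/Apoe–/–, Dicer_WT). All were 6 to 8 weeks old when a high-fat diet with 21% crude fat began, which lasted 12 weeks. Replicates are biological by their labels, and every aorta was taken as 1 mouse. LysM-Cre recombines in macrophages, monocytes and neutrophils. In which cells of the wall Dicer was lost, and how completely, was not measured on these arrays. The labels give macrophage as the cell type but aorta as the tissue, and the values were read as those of the whole wall.

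Mature smooth muscle cells of arteries are the main source of miR-143 and miR-145 in the vessel. Both are cut from 1 primary transcript, first by Drosha and then by Dicer, and their transcription is driven by serum response factor with its partner myocardin. They favour the contractile state of smooth muscle and fall when these cells switch to a proliferating state, as happens in injured and atherosclerotic arteries. In the mouse RefSeq table of assembly GRCm38.p6, Mir143 and Mir145a lie within the span of the long non-coding RNA gene Carmn, with 0 other listed genes between them. The array's miR-145 assay bears the older name of the microRNA that this table lists as Mir145a. Whether the assay also reads Mir145b, a further gene of that table, was not tested.

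Both microRNAs were among the most readily amplified RNAs of the aorta. The threshold cycle (Ct) is the PCR cycle at which product appears, and 1 cycle less stands for about 2 times the RNA. miR-145 had the lowest Ct of all microRNA assays in each of the 6 aortas, from 11.5 to 12.7. miR-143 was at 14.5 to 16.2, and its mean Ct of 15.4 ranked 4 among 330 assays detected (Ct below 35) in every aorta. The opposite strand miR-145* was at 26.3 to 27.6, rank 228. Ct values of different assays also depend on how well each primer set and the preamplification work, so this order is a description and not a ratio of molecules.

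In the Dicer_WT aortas miR-143 had relative quantities of 1.15, 1.02 and 0.849 for replicates 1 to 3, and in the Dicer_KO aortas 0.795, 0.519 and 0.501. The relative quantity is the authors' linear ratio to reference RNAs, with the geometric mean of the Dicer_WT aortas set to 1. All 3 Dicer_KO aortas lay below all 3 Dicer_WT aortas, with replicate 1 of Dicer_KO nearest to them. The means were 1.01 ± 0.152 and 0.605 ± 0.165 (SD, n = 3 each). For miR-145 the values were 1.04, 0.995 and 0.963 in Dicer_WT and 0.962, 0.687 and 0.637 in Dicer_KO aortas. The groups parted here by the third decimal only, since Dicer_KO replicate 1 stood at the level of the lowest Dicer_WT aorta, while the other Dicer_KO aortas were clearly lower. The means were 1.00 ± 0.0405 and 0.762 ± 0.175 (SD, n = 3 each). Of all 377 assays tested, 32.6% had every Dicer_KO aorta below every Dicer_WT aorta and 2.39% had every one above, so this pattern was a common one on the array. In tissue RNA, fewer cells of a type and less of the RNA in each cell cannot be told apart.

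**Figure D1:**
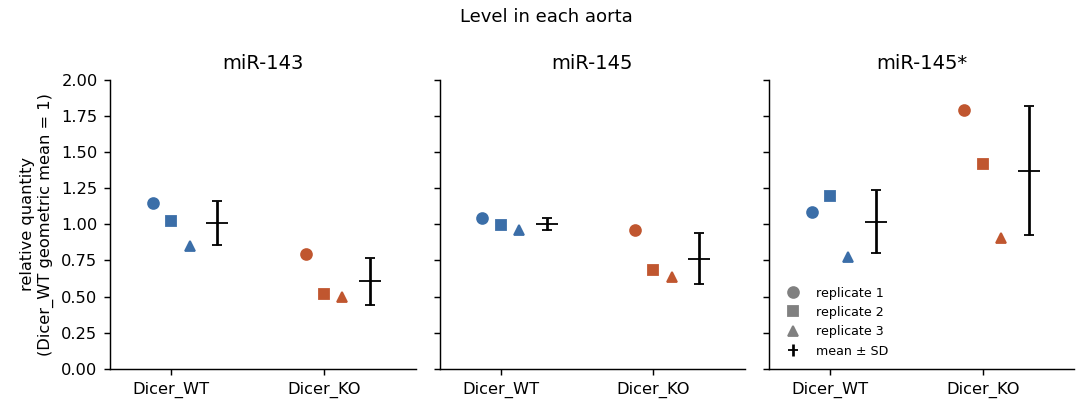
Relative quantity (Dicer_WT geometric mean 1, linear axis from 0) of miR-143, miR-145 and miR-145* in each aorta. Symbols give the replicate number, which was not taken to pair the mice, and bars the mean ± SD of 3 aortas. On this scale miR-143 and miR-145 are lower in Dicer_KO aortas, with replicate 1 highest among them at 0.795 and 0.962, and miR-145* is not; set against U87 and Y1 together, miR-145 had a log2 fold change of 0.096.

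Neither microRNA passed the test across the array. The log2 fold change of miR-143 was -0.76 ± 0.255 (SE, limma adjusted p = 0.137, lower in 3 of 3 Dicer_KO aortas), a fold of 0.591 with a 95% interval of 0.383 to 0.913. Its unadjusted limma p of 0.0254 was below 0.05, as was that of 24.4% of the 377 assays on the lower side and 2.39% on the higher side. For miR-145 it was -0.42 ± 0.215 (SE, limma adjusted p = 0.231, lower in 3 of 3 by the narrow margin above), a fold of 0.750 with an interval of 0.520 to 1.08. At an adjusted p under 0.05, limma called 1.86% of the 377 assays lower and 0% higher. Dicer_KO replicate 1 decided the call of miR-143. Without it the log2 fold change was -0.97 and passed (limma adjusted p = 0.0445), and the calls over the array rose from 7 to 64, while miR-145 was at -0.60 (adjusted p = 0.0661). The authors' deposited table gives folds of 0.600 for miR-143, 0.762 for miR-145 and 1.35 for miR-145*, each equal to the ratio of the arithmetic means of its relative quantities.

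On the authors' scale most assays had a lower mean in Dicer_KO aortas. A log2 fold change below 0 was found for 78.2% of assays, and the median of all was -0.42. That shift depended on the scaling, as the median was 0.16 with U87 and Y1 as references and 0.0032 after quantile normalization. On the authors' scale miR-145 sat at that median, since 189 of 377 assays had a lower value. miR-143 was further down, at -0.34 relative to the median, with 89 assays (23.6%) below it. The reference RNAs and the number of detected assays differed on average as well, and their part in this shift was not tested. The reference RNAs of the first card had a mean Ct of 17.1 ± 0.181 in the 3 Dicer_WT aortas and 17.4 ± 0.154 in the 3 Dicer_KO aortas (SD). The number of assays detected was 374 to 378 in Dicer_WT and 349 to 366 in Dicer_KO aortas.

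**Figure D2:**
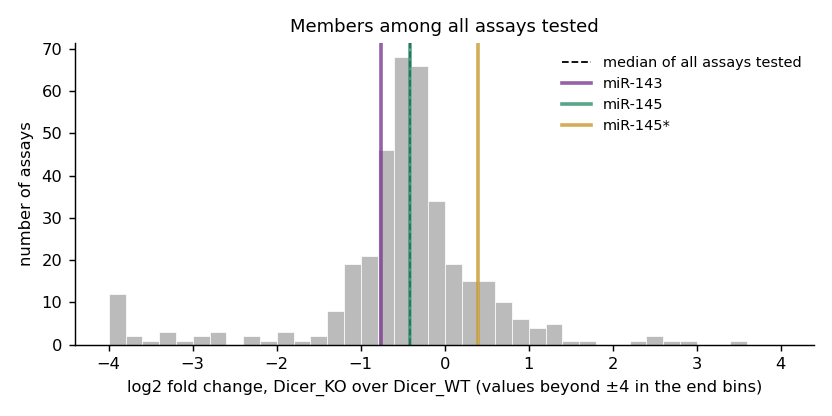
Number of assays by log2 fold change of Dicer_KO over Dicer_WT, for all 377 assays tested; coloured lines mark miR-143, miR-145 and miR-145*, and the dashed line the median of all. The line of miR-145 covers the median at -0.42, miR-143 lies to its left at -0.76 and miR-145* to its right at 0.40.

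The size of the difference depended on the RNA that the members were set against. Each member was compared with the 5 control RNAs of its own card, which are made without Dicer. They were the spliceosomal RNA U6, the small nucleolar RNAs snoRNA135 and snoRNA202, the cytoplasmic Y1 RNA, and U87. U6, snoRNA135 and snoRNA202 are the authors' references for this card. The Ct of U87 and Y1 was itself higher in every Dicer_KO than in every Dicer_WT aorta, by means of 0.70 and 0.78 cycles. For U6, snoRNA135 and snoRNA202 the Ct values of the genotypes overlapped, with mean differences of 0.060, 0.30 and 0.32 cycles. miR-143 was lower on average against all 5. Against snoRNA135 the Ct differences were 6.49, 6.41 and 6.16 cycles in Dicer_WT and 5.84, 5.65 and 5.51 in Dicer_KO aortas, a log2 difference of -0.69 (two-sided exact permutation p = 0.1, which with 3 aortas per genotype is the smallest possible). The groups of this comparison were narrow and did not overlap. Against snoRNA202 the log2 difference was -0.67 (exact permutation p = 0.1), but the groups were wide, at 1.80, 1.54 and 1.08 cycles in Dicer_WT and 1.06, 0.776 and 0.588 in Dicer_KO aortas, and parted only narrowly.

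Against U6 the difference of miR-143 was -0.92, with a wide spread in Dicer_KO aortas. Here Dicer_KO replicate 1 was at -1.20, among the Dicer_WT values of -0.99, -1.17 and -1.26, and replicates 2 and 3 were at -2.58 and -2.41 (exact permutation p = 0.2). Against U87 and Y1, which the authors did not use, miR-143 differed by -0.29 and -0.21 (exact permutation p = 0.2 each), with 2 of 3 Dicer_KO aortas below every Dicer_WT aorta. Thus the sign was shared by all 5 control RNAs, whereas the size ranged from -0.21 to -0.92.

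For miR-145 the sign itself was not shared. Against snoRNA135 it was at 9.45, 9.47 and 9.44 cycles in Dicer_WT and at 9.22, 9.16 and 8.96 in Dicer_KO aortas, a log2 difference of -0.34 (exact permutation p = 0.1). The Dicer_WT aortas agreed here to a few hundredths of a cycle (SD 0.0157) and all Dicer_KO aortas were lower. Against snoRNA202 and U6 the differences were -0.32 and -0.58 (exact permutation p = 0.2 and 0.4). Against U87 and Y1 miR-145 was higher on average, by 0.057 and 0.14 (exact permutation p = 0.9 and 0.4), with overlapping groups. The difference against U87 lay below 0 without Dicer_WT replicate 3 (-0.014) or without Dicer_KO replicate 1 (-0.074). Over these 10 comparisons the smallest Benjamini-Hochberg adjusted exact p was 0.286.

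**Figure D3:**
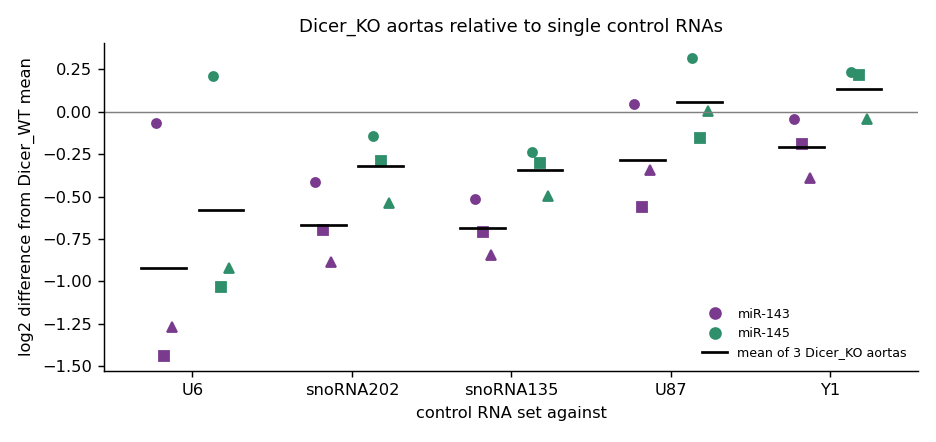
Log2 level of miR-143 (purple) and miR-145 (green) in the 3 Dicer_KO aortas relative to each of 5 control RNAs, as the difference from the mean of the 3 Dicer_WT aortas; circles, squares and triangles are replicates 1, 2 and 3, and black lines their means. The means of miR-143 lie below 0 throughout, from -0.92 to -0.21, and those of miR-145 run from -0.58 against U6 to 0.14 against Y1.

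The ratio of the 2 members needs no control RNA, since both were read on 1 card in the same RNA. The Ct of miR-145 minus that of miR-143, a log2 ratio of miR-143 over miR-145 up to a constant of the assays, was -2.96, -3.06 and -3.29 in Dicer_WT aortas. In Dicer_KO aortas it was -3.38, -3.51 and -3.45. Every Dicer_KO aorta was below every Dicer_WT aorta, and the Dicer_KO aortas, replicate 1 included, lay closer together. From a mean of -3.10 ± 0.166 to one of -3.45 ± 0.0656 (SD, n = 3 each) the difference was -0.34 (exact permutation p = 0.1, the smallest possible). On average miR-143 stood lower relative to its partner in Dicer_KO aortas, by more than the SD of either genotype. The nearest aortas of the genotypes, at -3.29 and -3.38, were however closer than the Dicer_WT SD.

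The same difference was put through limma with miR-145 of each aorta as the reference for all other assays of its card. miR-143 was then at -0.34 ± 0.146 (SE, limma adjusted p = 0.279, lower in 3 of 3 Dicer_KO aortas), with a 95% interval of -0.71 to 0.021 that included 0. Of 249 assays in this fit, 2.41% were called lower and 0.803% higher. Ratios that part the genotypes were common on this card. Among all 23436 pairs of its 217 assays detected in every aorta, 31.3% had groups without overlap, and 60.3% had a larger genotype difference. miR-143 over its card partners was lower in every Dicer_KO than in every Dicer_WT aorta for 31.0% of 216 partners. Of the 216 partners of miR-145, 15.7% were lower relative to it in the same way.

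**Figure D4:**
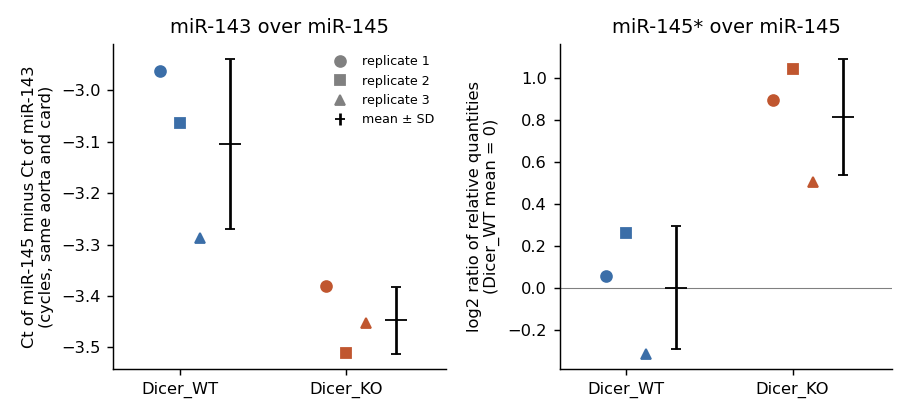
Left, Ct of miR-145 minus Ct of miR-143 in each aorta (cycles); right, log2 ratio of the relative quantities of miR-145* and miR-145 (Dicer_WT mean 0); symbols give the replicate number and bars the mean ± SD of 3 aortas. In both panels the genotypes do not overlap, with means of -3.10 and -3.45 on the left and a difference of 0.81 on the right.

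On the authors' references the strands of the miR-145 hairpin had mean differences of opposite sign, whereas with U87 and Y1 as references both were positive, at 0.096 for miR-145 and 1.04 for miR-145*. miR-145*, the strand that is usually discarded after Dicer cleavage, had relative quantities of 1.08, 1.19 and 0.773 in Dicer_WT and 1.79, 1.42 and 0.904 in Dicer_KO aortas. Its groups overlapped, as Dicer_KO replicate 3 lay below 2 of the Dicer_WT aortas. The log2 fold change was 0.40 ± 0.323 (SE, limma adjusted p = 0.384), where 328 of 377 assays had a lower value. Leaving out replicate 1 of Dicer_KO gave 0.18, and leaving out its replicate 3 gave 0.67.

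The ratio of both strands separated the genotypes. The log2 ratio of miR-145* over miR-145, relative to the Dicer_WT mean, was 0.056, 0.26 and -0.32 in Dicer_WT and 0.90, 1.04 and 0.51 in Dicer_KO aortas. All 3 Dicer_KO aortas were above all Dicer_WT aortas, by a mean of 0.81 (exact permutation p = 0.1, the smallest possible, SD 0.294 and 0.278, n = 3 each). The strands were read on different cards, so this ratio needs the reference RNAs of both. It was 0.73 with U6 alone, 0.70 with snoRNA202 alone, 0.94 with U87 and Y1 and 0.86 with no reference, and in each case the groups did not overlap. Leaving out 1 aorta gave 0.66 to 0.97. Among 61 hairpins with a star strand and a guide strand detected in every aorta, the median genotype difference of the star to guide ratio was 0.066, from -1.18 to 1.05. All Dicer_KO aortas were above all Dicer_WT aortas for 8.20% of the 61, and miR-145 ranked 3 from the top.

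Although both members come from 1 transcript, other assays followed each of them more closely over the 6 aortas. The SD over the aortas of the Ct difference between 2 assays was used as the measure of likeness, small where they keep a fixed ratio. For miR-143 and miR-145 it was 0.219 cycles, against a median of 0.488 over all pairs of the card. By this measure miR-145 ranked 42 among 216 partners of miR-143, and miR-143 ranked 58 among 216 partners of miR-145. With the SD taken within each genotype, which leaves out the genotype difference, it was 0.126 and the ranks were 23 and 27. The Ct values of the pair correlated at 0.985 over 6 aortas (Pearson's r, a description, since all assays of an aorta share its RNA amount).

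The 5 assays nearest to miR-143 were miR-152 (SD 0.0834 cycles), let-7a (0.0839), let-7c (0.101), miR-185 (0.103) and let-7i (0.108). Those nearest to miR-145 were miR-744 (SD 0.0589 cycles), miR-24 (0.0624), miR-467e (0.0893), miR-27a (0.0912) and miR-320 (0.0925). The lists held 0 assays in common and neither held the other member. Their own log2 fold changes ran from -0.86 for miR-185 to -0.61 for let-7c around miR-143, and from -0.50 for miR-320 to -0.39 for miR-467e around miR-145. The assays were picked for a steady Ct difference across both genotypes, so fold changes near that of the member follow from the choice. Which 5 assays were nearest depended on the aortas, as 2 to 4 of the 5 stayed in the list of either member when 1 aorta was left out. Within genotypes 1 of the 5 stayed for miR-143 and 2 for miR-145.

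Mature sequences of 7 of these 10 assays are shown to compare their seeds, the bases 2 to 8 that pair with target RNAs, which stand in capitals (RefSeq, GRCm38.p6, 5′ to 3′). Around miR-143 they were:
miR-152: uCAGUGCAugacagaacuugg
let-7a: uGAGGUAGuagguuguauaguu
let-7c: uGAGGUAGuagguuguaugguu
let-7i: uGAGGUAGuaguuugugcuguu
Around miR-145 they were:
miR-744: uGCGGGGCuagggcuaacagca
miR-24: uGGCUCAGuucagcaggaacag
miR-27a: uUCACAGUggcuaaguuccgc
The 3 let-7 microRNAs near miR-143 share 1 seed, and the other 4 seeds each occur once. let-7a and let-7c differ at 1 of 22 bases and let-7i from either at 4, and how far their assays read one another was not tested. miR-24 and miR-27a are made from clusters that also hold microRNAs of the miR-23 family.

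**Figure D5:**
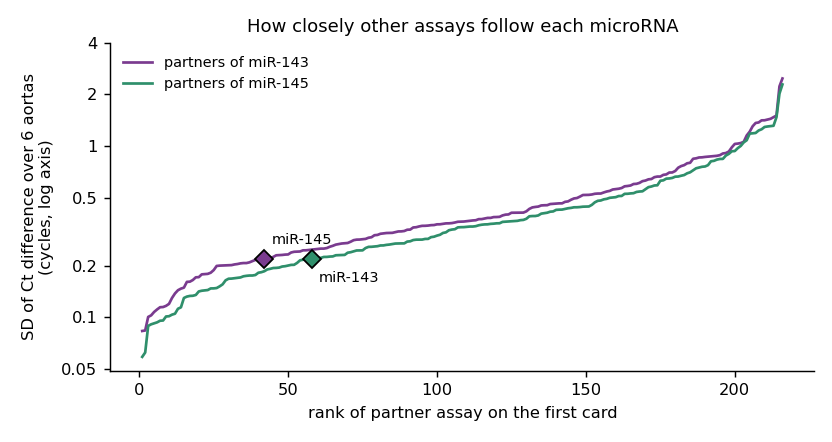
SD over 6 aortas of the Ct difference (cycles, log axis) between miR-143 or miR-145 and each of the 216 other assays of the first card detected in every aorta, in rising order; diamonds mark the partner from the same transcript. The partner lies at rank 42 for miR-143 and at rank 58 for miR-145, with an SD of 0.219 cycles.

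Other microRNA clusters gave a scale for this likeness. Of 21 pairs of microRNAs made from 1 transcript, 17 could be compared within a card, 2 were not detected in every aorta, 1 was on different cards and 1 was not found under these names. Of the 17, 5 had a smaller SD than miR-143 and miR-145, and 12 a larger one, with a median of 0.301 cycles. The closest were miR-23b with miR-27b at 0.0721 and miR-195 with miR-497 at 0.0886, where miR-497 was the nearest of all 216 partners of miR-195. The widest was miR-182 with miR-183 at 1.20. In the vessel-wall pair miR-221 and miR-222, which promote smooth muscle proliferation, the SD was 0.301 and the genotype difference of the log2 ratio -0.40, beside -0.34 for miR-143 over miR-145. Of the 17 pairs, 7 had genotype groups without overlap, beside 31.3% of all pairs of the first card, and 8 had a larger genotype difference than miR-143 and miR-145, beside 60.3%.

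Other microRNAs known to act on the state of smooth muscle cells were compared as a list of 18 assays, all detected in every aorta. limma called 0 of the 18 over all assays, where 1.86% of the array was called lower. An unadjusted p under 0.05 was found for 4 of 18, all lower, beside 24.4% of all assays on that side. A log2 fold change below 0 was found for 17 of 18, beside 78.2% of all assays. The median was -0.36 against -0.42 for all assays. Every Dicer_KO aorta was below every Dicer_WT aorta for 7 of 18, beside 32.6% of all assays. The share below 0 was above that of the array, and the other shares were near it. The lowest were miR-221 at -0.98 ± 0.272 (SE, limma adjusted p = 0.101) and miR-146a, which dampens inflammatory signals, at -0.93 ± 0.271 (adjusted p = 0.106). The proliferative miR-21 was at -0.54 ± 0.272 (adjusted p = 0.228), and the muscle microRNA miR-133a at -0.32 ± 0.285 (adjusted p = 0.414). miR-25 alone was above 0, at 0.21 ± 0.212 (adjusted p = 0.464). The fold change of miR-143, at -0.76, lay beyond those of all but miR-221 and miR-146a, and that of miR-145 lay near the list's median.

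Assays that mark other cells were summed for each aorta. The summed relative quantity of 6 of 6 myeloid assays was 4.98 to 7.65 in Dicer_WT and 2.93 to 4.34 in Dicer_KO aortas. These assays differed among themselves. The log2 fold change was -1.99 for miR-511, -1.66 for miR-223, -1.33 for miR-342-3p and -0.80 for miR-155. For miR-142-3p and miR-142-5p it was -0.074 and -0.088, with overlapping groups. The sum of 4 of 4 assays listed for fibroblasts, miR-152 among them, was 3.50 to 4.58 and 2.10 to 3.53. miR-152 was also the assay nearest to miR-143, and whether it marks fibroblasts here was not tested. The 2 endothelial miR-126 assays gave 1.70 to 2.23 and 1.74 to 3.02, and the 2 erythroid assays 1.00 to 3.60 and 4.10 to 6.28. Of 7 striated muscle assays 4 were detected in every aorta, with sums of 3.76 to 4.27 and 2.44 to 5.27, and miR-1, miR-133a and miR-133b among them also belong to the list of 18 above. Of the cardiac assays, miR-208 was detected in 5 aortas, miR-499 in 2 and miR-208b in 0. The log2 fold change of miR-208 was 0.93 ± 1.52 (SE, limma adjusted p = 0.647). Its deposited relative quantities were 14.2, 0.00841 and 8.36 in Dicer_WT and 4.67, 4.65 and 10.1 in Dicer_KO aortas. The positive value rested on the undetected well of Dicer_WT replicate 2, set to the detection cutoff. The miR-122 level, a liver marker, was 0.369 to 2.33 and 1.99 to 3.50. The sum of 4 of 4 epithelial assays was 2.29 to 7.04 and 3.43 to 6.53. That of 2 of 3 neuronal assays was 1.94 to 2.11 and 2.45 to 4.14, where miR-129-3p had a log2 fold change of 1.11 and miR-9 of -0.02. The neuronal miR-124, detected in 5 aortas and not in the sum, was at -1.30 ± 1.80 (SE, limma adjusted p = 0.592). Its deposited relative quantities were 0.882, 0.591 and 1.92 in Dicer_WT and 2.21, 1.38 and 0.000679 in Dicer_KO aortas. The negative value rested on the undetected well of Dicer_KO replicate 3, set to the detection cutoff. Dicer_KO replicates 1 and 2 lay above the Dicer_WT geometric mean. The myeloid, erythroid and neuronal sums did not overlap between genotypes, and the others of these cell types did. The sum of the 18 smooth muscle assays above did not overlap either, at 16.1 to 19.5 in Dicer_WT and 12.8 to 15.4 in Dicer_KO aortas. Of single assays, 32.6% were wholly lower and 2.39% wholly higher in Dicer_KO aortas. Their part in the differences of miR-143 and miR-145 was not tested.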

How the data were processed

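Total RNA of 6 aortas was reverse-transcribed, preamplified and read by TaqMan PCR, per the labels' protocols. The deposited Ct table covers 2 cards of 335 and 182 microRNA assays. In it, 5 decimal commas were read as points, and wells without product stand at 40. The deposited relative quantity is a linear ratio per assay. By the values, the references were U6, snoRNA135 and snoRNA202, with snoRNA429 on the second card. Their mean Ct minus the assay's Ct, less the Dicer_WT mean of this difference, equals the log2 relative quantity within 1e-05. The sources used here do not give the PCR software or threshold.

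The members and lists were chosen with earlier results of these data known. Assays below Ct 35 in at least 2 aortas of 1 genotype were tested (377), with undetected wells set to 35, by limma 3.58.1 in R 4.3.3 (two-sided, Benjamini-Hochberg over all assays, threshold 0.05). The fit was tested on simulated data with independent noise in each well and no reference RNAs. These held no shift shared by the assays of an aorta, so the check does not cover such shifts. Single quantities were compared by exact permutation tests (scipy 1.17.1). Named were the members, miR-145*, control RNAs, the 5 nearest assays and examples of the lists. The choice of star to guide ratios as a comparison was made after the data were seen. Replicate numbers were not taken as pairs of mice. Deviations of same-numbered aortas correlated at -0.084, -0.097 and 0.043, which does not settle whether the mice were paired.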

Additional observations from a re-analysis of the deposited data

How the results depend on the processing

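The number of arrays, 3 per genotype, limits all tests: exact tests cannot pass 0.05. miR-143 kept its negative sign in the 13 of 21 alternatives that could move its value, from -0.98 without normalization to -0.059 after quantile normalization (limma adjusted p from 0.0445 to 0.836), and passed only without Dicer_KO replicate 1. Leaving out 1 aorta gave -0.97 to -0.64 for miR-143 and -0.60 to -0.30 for miR-145. miR-145 turned to 0.096 relative to U87 and Y1 and was at 0 after quantile normalization, which fixes the assay that ranks first in every aorta. The 7 calls over the array (7 lower, 0 higher) became 18 with snoRNA135 alone (16 and 2), 9 each with snoRNA202 alone (8 and 1), with U87 and Y1 (7 and 2) and after quantile normalization (6 and 3), 8 after centring on the mean (7 and 1), 26 at a Ct cutoff of 32, 13 with Ct 40 as measured, 22 over assays detected in all 6 aortas, 21 with a variance trend, and 5 to 64 with 1 aorta left out. Relative to U87, miR-145 ran from -0.074 to 0.16 with 1 aorta left out. The ratio of the members was -0.43 to -0.27 with 1 aorta left out, and the other 3 alternatives leave it as it is by construction. With the SD within genotypes, chosen after the data were seen, the ranks of the partners were 23 and 27, and with 1 aorta left out 31 to 54 and 39 to 75. The replicate block left fold changes as they were, with limma adjusted p of 0.0837 for miR-143 (-0.76) and 0.164 for miR-145 (-0.42), and 7 calls. The cause of these changes was not tested.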

Other observations

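The assays nearest to miR-145* on its own card were star strands, but the share of star strands among all its partners was not counted. Of 112 partners detected in every aorta, the 5 with the smallest SD of the Ct difference were miR-183* (0.203 cycles), let-7c-1* (0.225), miR-33* (0.261), miR-16* (0.294) and miR-27a* (0.302), against a median of 0.573. Their log2 fold changes were 0.30, 0.15, 0.54, 0.022 and 0.058, above the median of all assays at -0.42, and none passed the threshold in limma. The assays were picked for a steady Ct difference from miR-145* across both genotypes, so fold changes near its own follow from the choice.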
